A study of Homo sapiens with 8 samples.

Results

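Molecular chaperones, their cochaperones and the enzymes that help proteins fold were examined in MIA PaCa-2, an established human pancreatic ductal adenocarcinoma cell line. Members were taken by gene symbol: names that begin with HSP, DNAJ, CCT and a digit, BAG, FKBP or PDIA, the cyclophilins PPIA to PPIH, and STIP1, ST13, AHSA1, CHORDC1 and HSF1. The inducible HSP70 genes and the matrix proteoglycan HSPG2 were left out. The rule found 51 genes among the 3666 listed by the authors, namely 36 of the cytosol and nucleus, 10 of the endoplasmic reticulum (ER), 4 of mitochondria and 1 readthrough transcript, HSPE1-MOB4, whose name matches but which is no chaperone. Compartments were assigned by hand from textbook knowledge.

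The cells were wild type and carried no drug treatment. All were exposed briefly to lactate-containing medium, which was washed out, and were then sorted by how readily lactic acid crosses their membrane, into a low (PHLac-low) and a high (PHLac-high) group, called fractions below. Each of 4 repeats of the sort gave 1 library per fraction, so 4 PHLac-low libraries were compared with 4 PHLac-high libraries, paired by repeat. The labels do not say that the repeats came from separate cultures, so p-values measure the spread between these samples, which may be technical. Both fractions come from 1 cell line, and no unsorted cells were analysed here.

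Values are normalised counts, which are read counts that the authors divided by a size factor per library. Reads in the listed genes ranged from 8979276 to 23176205 per library, which is part of each library and not its depth. A principal component analysis put 54.7% of the variance on its first axis. There the PHLac-low library of repeat 4 scored -6.88, apart from the other PHLac-low libraries (-25.9 to -24.5). The PHLac-high library of repeat 4 scored 33.4, apart from the other PHLac-high libraries (14.1 to 18.5). Of 10 epithelial and mesenchymal markers 1 was listed, the ductal keratin KRT19, at 14790.3 to 24031 normalised counts per library. Of 10 markers of other cells 4 were listed (PTPRC, CD68, COL1A1 and ACTA2). Their summed level was 1462 to 2391 in PHLac-low and 1376 to 3585 in PHLac-high, most of it CD68. They moved apart: CD68, a lysosomal protein of macrophages, had a log2 change of 0.55, while the leukocyte gene PTPRC fell by 1.36, the smooth muscle actin ACTA2 by 0.98 and the collagen gene COL1A1 by 0.64 on that scale. PTPRC and ACTA2 did not overlap between the fractions. The part of these markers in the results was not tested, and the other markers were not analysed here.

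Chaperones bind unfolded stretches of other proteins and release them for another attempt at folding. In the cytosol HSP70 binds a client with the help of J-domain proteins, which trigger its ATP hydrolysis, and of nucleotide exchange factors, which reset it. HSP90 and the ring-shaped chaperonin TRiC take over certain clients, and the ER and mitochondria hold relatives of these machines. HSF1 is the transcription factor that raises many cytosolic chaperone genes under stress, and ER chaperone genes respond to the unfolded protein response.

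The promoters of the few members whose upstream bases hold a stress element were printed to show the regulatory sequence beside the values. Sequences are from RefSeq (GRCh38.p14), which held promoters for 47 of the 51 members, and the 250 bases before the gene start were searched on both strands. The 3-unit heat shock element, the binding motif of HSF1, was searched as GAA, TTC, GAA or as TTC, GAA, TTC with 2 bases of any kind between neighbours, and is in capitals. It was found in 3 of 47 members (CHORDC1, HSPA8 and DNAJB6) and in 0.439% of all 27305 promoters. CHORDC1 (chr11:90223050-90223299, minus strand) has 3 overlapping matches, the nearest ending 38 bases before the start, and DNAJB6 (chr7:157336754-157337003, plus strand) has 1. For HSPA8 (minus strand), where a longer transcript spans the window, the 2 matches are shown with 8 bases on each side (chr11:123062346-123062374 and chr11:123062171-123062199).
CHORDC1: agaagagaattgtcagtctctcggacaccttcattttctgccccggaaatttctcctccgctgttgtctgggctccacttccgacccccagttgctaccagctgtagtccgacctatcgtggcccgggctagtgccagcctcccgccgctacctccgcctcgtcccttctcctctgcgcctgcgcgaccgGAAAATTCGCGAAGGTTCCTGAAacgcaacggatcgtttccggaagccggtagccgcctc
DNAJB6: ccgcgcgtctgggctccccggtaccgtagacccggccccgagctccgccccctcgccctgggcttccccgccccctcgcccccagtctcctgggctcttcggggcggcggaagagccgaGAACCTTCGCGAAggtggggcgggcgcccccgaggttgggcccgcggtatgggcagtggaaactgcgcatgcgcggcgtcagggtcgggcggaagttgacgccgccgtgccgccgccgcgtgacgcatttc
HSPA8, distal: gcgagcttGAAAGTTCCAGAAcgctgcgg
HSPA8, proximal: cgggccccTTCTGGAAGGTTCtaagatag

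The shorter 2-unit form (GAA then TTC, or TTC then GAA, again 2 bases apart), which every 3-unit match also contains, was found in 6 of 47 members (12.8%) and in 11.7% of all promoters. The 6 were CHORDC1, HSPA8, DNAJB6, DNAJA1, BAG2 and HSPB1. All are cytosolic, but so were 33 of the 47 members searched, and 18.2% of these 33 held the form. The ER stress element, CCAAT and CCACG with 9 bases of any kind between them and in capitals here, was found in 1 member, HSPA5 (chr9:125241344-125241593, minus strand), and in 0.0806% of all promoters.
HSPA5: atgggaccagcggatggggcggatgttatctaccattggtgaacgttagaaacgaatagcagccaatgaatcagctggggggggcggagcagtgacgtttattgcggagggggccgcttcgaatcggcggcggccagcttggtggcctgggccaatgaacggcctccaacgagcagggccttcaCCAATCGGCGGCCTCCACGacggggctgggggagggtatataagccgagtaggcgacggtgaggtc

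HSPD1 and HSPE1 encode the mitochondrial chaperonin HSP60 and its lid HSP10. They are transcribed away from each other on chromosome 2, and only 104 bases separate their starts (chr2:197500275-197500378, plus strand, read toward HSPE1). The sequence is shown because both genes share it as upstream region.
HSPE1 and HSPD1: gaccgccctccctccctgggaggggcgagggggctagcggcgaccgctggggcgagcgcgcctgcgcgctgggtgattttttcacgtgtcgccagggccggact
Matches describe these letters and do not show binding, and a promoter without a match says only that the letters are not in this window.

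Which chaperone transcripts differed between the fractions was asked first. In PHLac-high 45 of the 51 members were higher and 6 were lower, and all passed limma's test with the repeat as a block at a Benjamini-Hochberg adjusted p of 0.05. The authors listed only genes that passed their own threshold, so 99.9% of all listed genes passed as well (58.7% higher and 41.2% lower), and the call itself says nothing about chaperones. The members were abundant, with 39 at or above the median level of the listed genes. Of these 39, 37 were higher, against 77.0% of the listed genes at or above that level. The members' median log2 change (of the normalised count + 1) was 0.39, against 0.25 over all listed genes. In bulk RNA, more cells that express a gene and more RNA per cell cannot be told apart. Without the block 17 members passed, against 31.0% of the listed genes.

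Directions depended in part on the scaling. Scaling each library to its upper quartile over the table lowered every log2 change by about 0.22, and median-of-ratios scaling lowered it by 0.12. Both scalings used only the listed genes, which were selected as changed. With the authors' size factors 1412 of the 1833 listed genes at or above the median level were higher (77.0%), and after upper-quartile scaling 1240. The part of this selection in the lowering was not tested. Which size factors are nearer the truth cannot be told from the listed genes. After upper-quartile scaling 39 members were higher and 12 lower, and 25 passed as higher and 6 as lower (23.2% and 41.2% of the listed genes). The 6 members that changed sign were CCT7, DNAJA2, HSPB1, CCT3, PPIA and PPIB, and none of these passed in the new direction. In all, 20 members that passed with the authors' size factors did not pass after upper-quartile scaling. Beside those 6 they were HSP90AB1, HSPA4, HSPA5, HSPA9, FKBP4, CCT4, CCT6A, CCT8, DNAJC2, DNAJC3, DNAJC7, DNAJC9, BAG2 and BAG5. Without repeat 4, whose libraries stood apart, 44 members passed as higher and 6 as lower (58.2% and 40.7% of the listed genes).

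The size of the change set some members apart. A log2 change of at least 0.5 upward was found for 18 of 51 members and for 19.5% of the listed genes. At least 1 was found for 7 members, namely 6 of the cytosol and the readthrough HSPE1-MOB4, and for 5.86%. At or above the median level, at least 0.5 was found for 35.9% of members and 15.8% of listed genes. At least 1 was found there for 15.4% and 2.18%. The PHLac-high values lay wholly above the PHLac-low values in 16 members (23.3% of the listed genes) and wholly below in 3 (13.4%). In the authors' deposited table the members' adjusted p-values ran from 7.5e-79 for BAG3 to 0.0441 for PPIB.

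**Figure D1:**
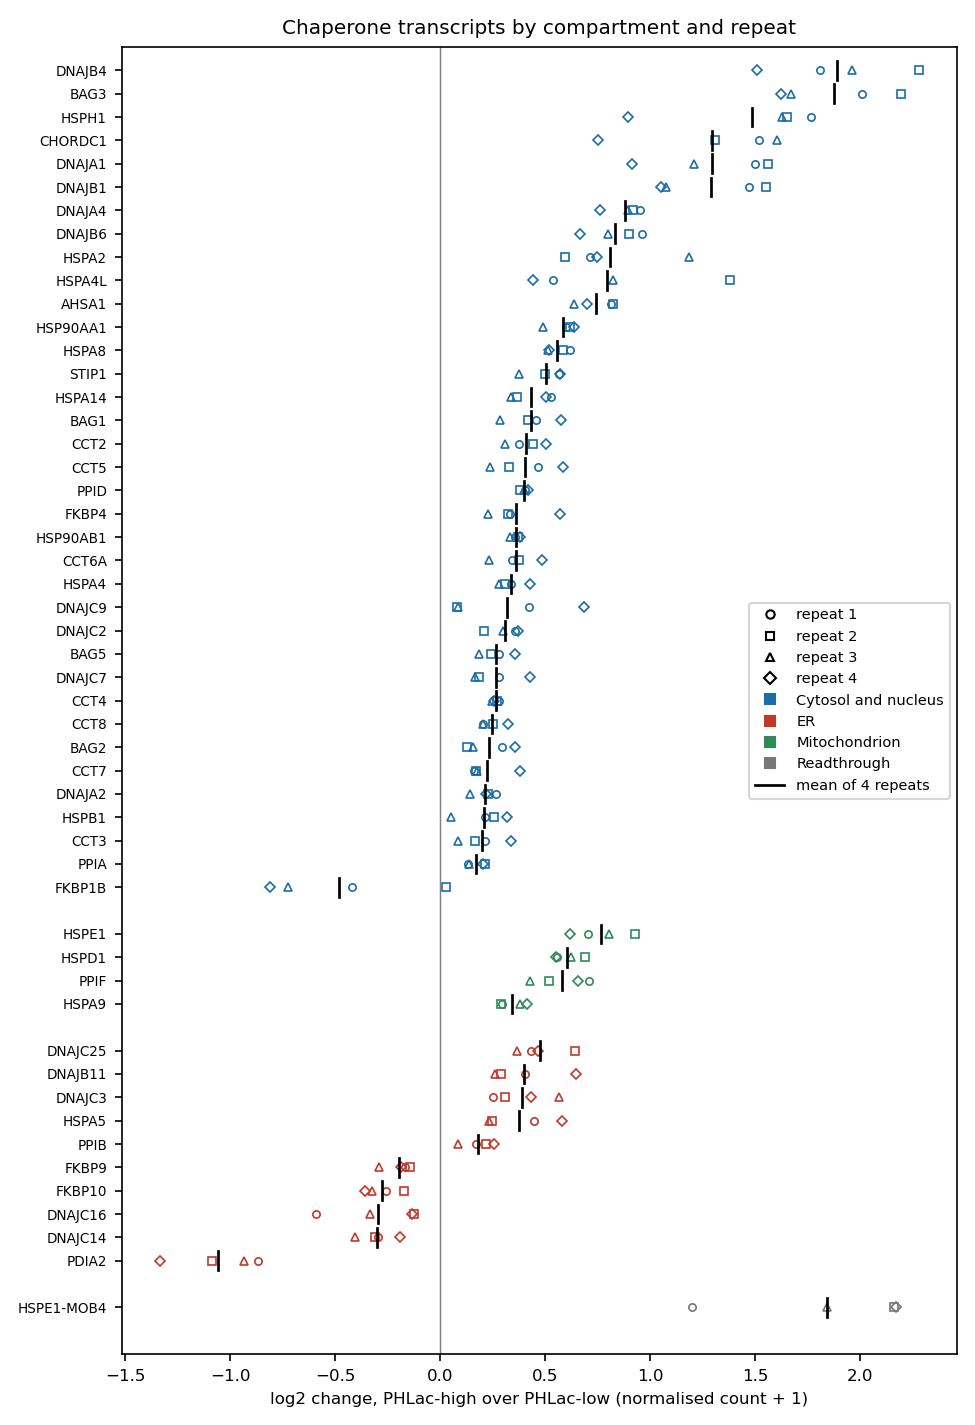
The log2 change of PHLac-high over PHLac-low is plotted for each of the 51 members, with 1 symbol per repeat and a bar at their mean. Cytosolic members spread from -0.48 to 1.89, the 4 mitochondrial members sit between 0.34 and 0.76, and the ER members fall on both sides of 0.

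Among the chaperones the HSP70 system of the cytosol held the largest increases, led by J-domain proteins and exchange factors. DNAJB4 (Entrez 11080), a J-domain partner of HSP70, had 623, 534, 526 and 662 normalised counts in PHLac-low (repeats 1 to 4, the order used throughout) and 2183, 2597, 2053 and 1883 in PHLac-high. The groups did not overlap, and even the lowest PHLac-high library was far above the highest PHLac-low library. Means were 586 ± 67.0 and 2179 ± 305 (SD, n = 4), and the log2 change was 1.89 ± 0.12 (SE; adjusted p by limma = 2.25e-05), in 4 of 4 repeats.

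BAG3 (Entrez 9531), an exchange factor that steers HSP70 clients to autophagy, had 2089.96, 2049, 2186 and 2988 in PHLac-low and 8396, 9383, 6952 and 9200.3 in PHLac-high. Its PHLac-low value was highest in repeat 4, and the groups stayed far apart. The log2 change was 1.87 ± 0.10 (SE; adjusted p by limma = 1.24e-05), a 3.66-fold difference. HSPH1 (Entrez 10808), the HSP110 exchange factor, had 9589.6, 11564, 9676 and 18587 in PHLac-low and 32584, 36281, 29838 and 34487 in PHLac-high. The PHLac-high libraries were alike, while the PHLac-low library of repeat 4 was well above the other PHLac-low libraries. Its log2 change of 1.48 ± 0.13 (SE; adjusted p by limma = 7.8e-05) was 1.76, 1.65, 1.62 and 0.89 in repeats 1 to 4, and 1.68 without repeat 4.

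DNAJA1 (Entrez 3301) and DNAJB1 (Entrez 3337), the abundant general J-domain partners of HSP70, rose by similar amounts. DNAJA1 had 7821, 7042, 9404 and 12735 in PHLac-low and 22069, 20746, 21746 and 24002 in PHLac-high, a log2 change of 1.29 ± 0.10 (SE; adjusted p by limma = 5.27e-05). DNAJB1 had 17680.2, 20776, 26570.3 and 22725 in PHLac-low and 48998, 60916, 55869 and 47149 in PHLac-high, a log2 change of 1.29 ± 0.09 (SE; adjusted p by limma = 3.9e-05). Neither gene's groups overlapped. In DNAJA1 the change was smallest in repeat 4 (0.91), where PHLac-low was highest.

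The cytosolic J-domain members numbered 9, with a median log2 change of 0.83. Under the authors' scaling 9 were higher, and under upper-quartile scaling 8. DNAJA4 rose by 0.88 and DNAJB6, which holds back aggregation of glutamine-rich proteins, by 0.83. The remaining members moved less: DNAJC9, a histone chaperone, by 0.32, DNAJC2 by 0.31, DNAJC7 by 0.26 and DNAJA2 by 0.21. The change of DNAJC9 ran from 0.08 to 0.68 over the repeats. After upper-quartile scaling DNAJC9, DNAJC2, DNAJC7 and DNAJA2 no longer passed. An antisense gene overlaps DNAJC9, and whether counting used strand is not given in the sources used here.

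HSPA8 (Entrez 3312), the constitutive HSP70 of the cytosol, had 51541, 49718, 56567 and 63273 in PHLac-low and 79057, 74421, 80751 and 90593 in PHLac-high. No PHLac-low library reached any PHLac-high library. Its log2 change of 0.56 ± 0.05 (SE; adjusted p by limma = 8.95e-05) was smaller than that of its J-domain partners DNAJB4, DNAJB1 and DNAJA1, and it lay between 0.51 and 0.62 in each repeat. HSPA14, which works with DNAJC2 at the ribosome, rose by 0.43, and HSPA2, which had only 35.9 to 130 normalised counts per library, by 0.81. The HSP110 relatives HSPA4L and HSPA4 rose by 0.79 and 0.34. The other BAG proteins changed less than BAG3: BAG1 by 0.43, BAG5 by 0.27 and BAG2 by 0.23. After upper-quartile scaling BAG5 was at 0.04 and BAG2 at 0.0079, and neither passed. The small heat shock protein HSPB1 had a log2 change of 0.21 ± 0.06 (SE; adjusted p by limma = 0.00797), which became -0.02 after upper-quartile scaling.

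The inducible HSP70 genes, which the rule left out, changed more than any member. HSPA1A had a log2 change of 2.23, HSPA1B of 2.23 and HSPA6 of 5.81. Each of the 3 had its smallest change in repeat 4 (1.67, 1.59 and 3.69). So did the 6 cytosolic members with a log2 change of at least 1, and DNAJA4 and DNAJB6. Not all cytosolic members did: HSPA2 had its smallest change in repeat 2 and HSP90AA1 in repeat 3.

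**Figure D2:**
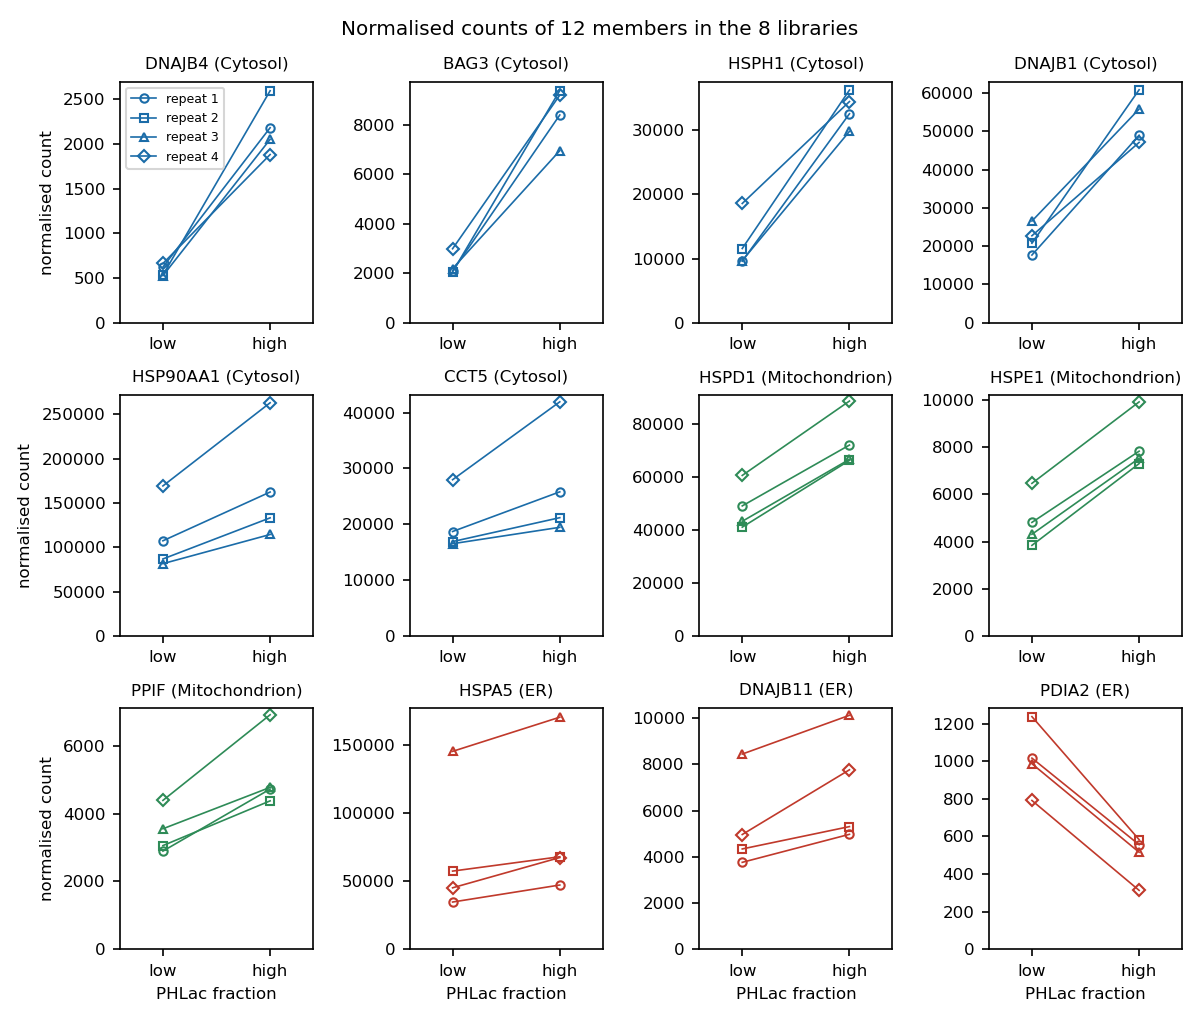
Normalised counts of 12 members are plotted in the 8 libraries, with a line joining the PHLac-low and PHLac-high library of each repeat. DNAJB4, BAG3, HSPH1 and DNAJB1 separate by fraction, HSP90AA1 and CCT5 are highest in both libraries of repeat 4, HSPA5 and DNAJB11 are highest in both libraries of repeat 3, and PDIA2 is lower in every PHLac-high library.

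HSP90 and its helpers formed the next group. HSP90AA1 (Entrez 3320), the stress-responsive cytosolic HSP90, had 107348, 86831, 81531 and 169301 in PHLac-low and 162406, 133240.3, 114451 and 263188 in PHLac-high. Repeat 4 was highest in both fractions, so the groups overlapped although every pair rose. The change was 0.60, 0.62, 0.49 and 0.64 in repeats 1 to 4, with a mean of 0.59 ± 0.05 (SE; adjusted p by limma with the replicate block = 8.95e-05; without the block, adjusted p by limma = 0.126).

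HSP90AB1 (Entrez 3326), the constitutive form, had 155797, 157254, 139837 and 176304 in PHLac-low and 199168, 202972, 175880.04 and 229480.5 in PHLac-high. Repeat 3 was lowest and repeat 4 highest in both fractions, and the groups overlapped narrowly. Its log2 change was 0.36 ± 0.05 (SE; adjusted p by limma = 0.00049). It passed neither without the block (adjusted p by limma = 0.0923) nor after upper-quartile scaling (adjusted p by limma = 0.0776).

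Among the HSP90 cochaperones CHORDC1 (Entrez 26973) changed most. It had 1091, 1246, 917 and 2787 in PHLac-low and 3119.5, 3089, 2791 and 4691 in PHLac-high. The PHLac-low library of repeat 4 almost reached the lowest PHLac-high library. The log2 change was 1.29 ± 0.13 (SE; adjusted p by limma = 0.000121), and 1.48 without repeat 4.

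AHSA1, which speeds the ATPase of HSP90, rose by 0.74, in 4 of 4 repeats and with no overlap. STIP1 (Entrez 10963), which links HSP70 to HSP90, had 9452, 9121, 9298 and 14284 in PHLac-low and 13986, 12904, 12059 and 21178 in PHLac-high. Its log2 change was 0.50 ± 0.05 (SE; adjusted p by limma = 0.000174; without the block, adjusted p by limma = 0.0771). The immunophilins that dock on HSP90, PPID and FKBP4, rose by 0.40 and 0.36. HSF1, HSP90B1 and ST13 were not analysed here.

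TRiC, the chaperonin ring that folds actin and tubulin, was covered by 7 members, CCT2, CCT3, CCT4, CCT5, CCT6A, CCT7 and CCT8. Under the authors' scaling 7 were higher, and under upper-quartile scaling 5, since CCT3 and CCT7 changed sign. The changes were small and close to each other, from 0.20 for CCT3 to 0.41 for CCT2, with a median of 0.26 that is near the 0.25 of all listed genes. The groups overlapped in all 7, and both libraries of repeat 4 were high. CCT5, for example, had 18698, 16892, 16514 and 27981 in PHLac-low and 25809.6, 21177, 19451 and 41941 in PHLac-high. TCP1, the eighth subunit, whose name the rule does not match, had a larger change of 0.60 ± 0.05 (SE; adjusted p by limma = 7.32e-05).

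The other cytosolic prolyl isomerases were PPIA and FKBP1B. PPIA, the abundant cyclophilin A, had a log2 change of 0.17 ± 0.05 (SE; adjusted p by limma = 0.00914), the smallest of all members, and of -0.05 after upper-quartile scaling. FKBP1B, known for binding calcium release channels, was the only cytosolic member that fell, by 0.48 on the log2 scale (SE 0.15; adjusted p by limma = 0.0128). It had 374, 314, 310.3 and 231 in PHLac-low and 279, 320.1, 187 and 131 in PHLac-high, and in repeat 2 the difference was 0.03 upward.

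All 4 mitochondrial members were higher, also after upper-quartile scaling. HSPD1 (Entrez 3329; chr2:197486584-197500274) had 48999.6, 40987, 43194 and 60487 in PHLac-low and 71946, 66159, 66560.4 and 88542 in PHLac-high. HSPE1 (Entrez 3336; chr2:197500379-197503449) had 4810.3, 3837, 4307 and 6465 in PHLac-low and 7830.3, 7303, 7527 and 9919 in PHLac-high. In both genes repeat 4 was highest in each fraction and the groups did not overlap. The log2 change was 0.60 ± 0.05 for HSPD1 (SE; adjusted p by limma = 7.8e-05) and 0.76 ± 0.06 for HSPE1 (adjusted p by limma = 7.32e-05). The order of the repeats was also alike, with the largest change in repeat 2 (0.69 and 0.93).

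HSPE1-MOB4, the readthrough from HSPE1 into its neighbour, starts at the same base as HSPE1. It had 11.1, 7.39, 9.59 and 11.3 in PHLac-low and 26.9, 36.5, 37.0 and 54.3 in PHLac-high. Its log2 change of 1.84 thus rests on a low level. The division of reads between this transcript and HSPE1 is uncertain, since they share exons. PPIF, cyclophilin D of the permeability transition pore, had 2899.5, 3062, 3560.4 and 4399.99 in PHLac-low and 4734, 4386, 4785 and 6934 in PHLac-high, a log2 change of 0.58 ± 0.06 (SE; adjusted p by limma = 0.000189). The overlap of its groups came from the PHLac-low library of repeat 4.

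HSPA9, the mitochondrial HSP70 that pulls in imported proteins, had 34619, 37235, 40081 and 39127 in PHLac-low and 42469, 45505, 52103 and 52034 in PHLac-high. The groups did not overlap, and the log2 change was 0.34 ± 0.05 (SE; adjusted p by limma = 0.000605). After upper-quartile scaling it was 0.12 and did not pass (adjusted p by limma = 0.0944).

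ER members split evenly, with 5 higher and 5 lower. Those that rose with the authors' size factors were the ER HSP70 HSPA5 (BiP), its J-domain partners DNAJB11 and DNAJC3, the J-domain protein DNAJC25 of the ER membrane, and PPIB, which changed sign after upper-quartile scaling. Those that fell were the disulfide isomerase PDIA2, the isomerases FKBP9 and FKBP10, and the J-domain proteins DNAJC14 and DNAJC16.

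HSPA5 (Entrez 3309) had 34534, 57235, 145112 and 44979 in PHLac-low and 47016, 67772, 170196 and 67184 in PHLac-high. Both libraries of repeat 3 stood far above all others, and the groups overlapped. The PHLac-high library was higher in each pair, by 0.45, 0.24, 0.23 and 0.58, with a mean of 0.37 ± 0.07 (SE; adjusted p by limma with the replicate block = 0.00167). Without the block the same change had a limma adjusted p of 0.462, and without repeat 3 it was 0.42 (adjusted p by limma = 0.00321). After upper-quartile scaling it was 0.15 and did not pass (adjusted p by limma = 0.0630).

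DNAJB11 had 3759, 4339, 8451 and 4964 in PHLac-low and 4973, 5307, 10129.8 and 7769 in PHLac-high. DNAJC3 had 772, 848, 1902 and 956 in PHLac-low and 918, 1049, 2815 and 1289.6 in PHLac-high. As in HSPA5, both libraries of repeat 3 were the highest of their fraction. The log2 change was 0.40 ± 0.07 for DNAJB11 (SE; adjusted p by limma = 0.00149; without the block 0.221) and 0.39 ± 0.08 for DNAJC3 (SE; adjusted p by limma = 0.00215; without the block 0.34). After upper-quartile scaling DNAJC3 was at 0.16 and did not pass (adjusted p by limma = 0.115). DNAJC25 had 433, 476, 519 and 524 in PHLac-low and 585, 744, 669 and 723 in PHLac-high. It rose by 0.48 with no overlap, and a readthrough gene over DNAJC25 makes the division of its reads uncertain.

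PDIA2 (Entrez 64714; chr16:283164-287215), a disulfide isomerase typical of pancreas, had 1016, 1237, 986 and 791 in PHLac-low and 555, 582, 515 and 312 in PHLac-high. Every PHLac-high library was below every PHLac-low library. It fell by 1.06 on the log2 scale (SE 0.10; adjusted p by limma = 9.37e-05), the largest decrease among the members, in 4 of 4 repeats. FKBP10, a chaperone of collagen, had 26043, 27014, 33751 and 18062 in PHLac-low and 21784, 23933, 26957 and 14103 in PHLac-high, with repeat 4 lowest in both, and fell by 0.28 on the log2 scale. FKBP9 fell by 0.20, DNAJC16 by 0.30 and DNAJC14 by 0.30 in the same units. FKBP9 and DNAJC14 had groups that did not overlap.

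The compartments were then compared over the 8 libraries, paired by repeat. The median log2 change of the 36 cytosolic members was 0.41, 0.37, 0.30 and 0.50 in repeats 1 to 4, and that of the 4 mitochondrial members 0.63, 0.60, 0.52 and 0.58. For the 10 ER members it was -8.61e-05, 0.04, -0.11 and 0.06. Over all listed genes it was 0.22, 0.18, 0.17 and 0.20. In each repeat the ER median was thus the lowest and the mitochondrial median the highest, and the cytosolic median exceeded the ER median by 0.33 to 0.44. The compartments also differed in level: 5 of 10 ER, 30 of 36 cytosolic and 4 of 4 mitochondrial members were at or above the listed genes' median level. The medians of these members over the repeats were closer, at 0.18, 0.38 and 0.59, against 0.28 over the listed genes at that level. The members were chosen with results known and share their libraries, so these differences are a description with no test.

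**Figure D3:**
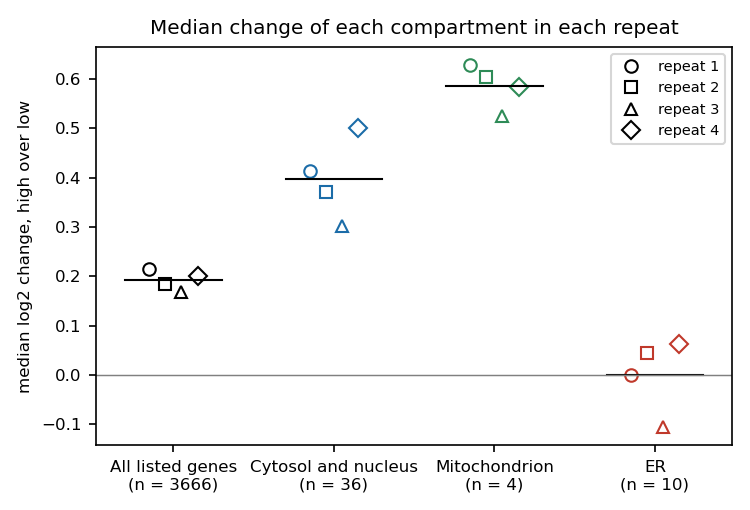
The median log2 change of PHLac-high over PHLac-low is plotted for all listed genes and for each compartment, with 1 symbol per repeat and a bar at the mean of the 4. Medians of the ER members lie between -0.11 and 0.06, below those of all listed genes in each repeat.

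The ER median depended on which members were counted. The 7 members of the ER lumen had a median of 0.18, with 4 higher and 3 lower, and the 3 members of the ER membrane had one of -0.30. With upper-quartile scaling the 3 compartment medians were 0.18 (cytosol), -0.23 (ER) and 0.37 (mitochondria), in the same order.

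Levels differed between the repeats, and the highest repeat was mostly another one in the ER lumen than in the cytosol. The level of a gene in a repeat was taken as the mean log2 value of its PHLac-low and PHLac-high libraries. It was highest in repeat 4 for 32 of 36 cytosolic members, against 36.4% of all listed genes and 48.7% of those at or above the median level, and for 3 of 4 mitochondrial members. In the ER lumen it was highest in repeat 3 for 6 of 7 members, against 24.3% of all listed genes and 18.6% of those at or above the median level. FKBP9, 1 of these 6, lay only 0.09 above its mean there. Of the 3 ER membrane members 0 were highest in repeat 3, so the ER as a whole had 6 of 10. Repeat 4 lay 0.32 above the mean of the repeats in the median cytosolic member and 0.47 above it in the median TRiC member. The median over all listed genes was -0.03.

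HSP90AA1 lay 0.69 above its mean in repeat 4, CCT5 0.61 and CHORDC1 0.76. HSPA5 lay 1.20 above its mean in repeat 3, DNAJC3 0.95 and DNAJB11 0.65, while the cytosolic median in repeat 3 was -0.18. For 32 of the 51 members the range between repeats exceeded the change between fractions, as it did for 58.7% of the listed genes. For HSPA5 that range was 1.96 and the change 0.37. Among the listed genes the PHLac-low library of repeat 3 had the most reads and its PHLac-high library the second fewest. The part of these read totals in the levels was not tested. The labels name no batch, date or passage for the repeats, and the part of any of them in these levels was not tested.

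**Figure D4:**
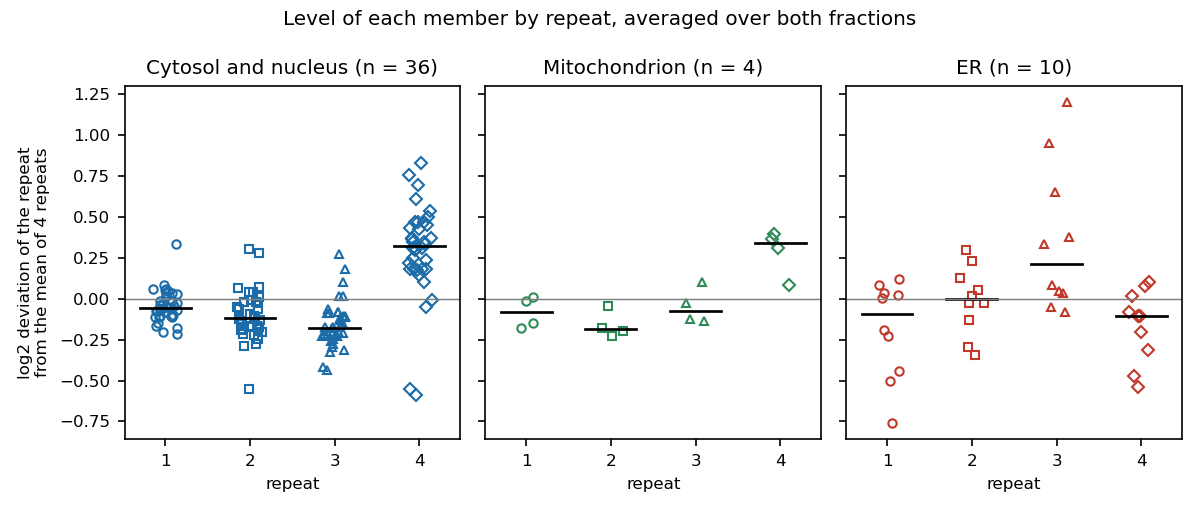
For each member the log2 level in a repeat, averaged over both fractions, is plotted as its deviation from the mean of the 4 repeats, with a bar at the median of the compartment. Cytosolic and mitochondrial members are high in repeat 4 (medians 0.32 and 0.34), and HSPA5, DNAJC3 and DNAJB11 are the 3 highest points of the ER panel, all in repeat 3.

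Transcript levels were compared between genes per kilobase of the longest protein-coding transcript in GENCODE release 29. HSP90AB1 was the most abundant member, with 58825 ± 5582 normalised counts per kilobase (SD, n = 4) in PHLac-low. Its PHLac-high level was 75496 ± 8211. HSP90AA1 followed with 31696 ± 11472 per kilobase in PHLac-low, and PPIA, HSPA8, HSPD1, HSPB1 and HSPA5 came next in this order, with means from 23779 to 18031. From HSP90AA1 down to HSPA5 each neighbouring pair differed by less than the larger SD of the pair. Processed pseudogenes exist for several of these genes, and how reads that fit more than 1 copy were counted is not given in the sources used here. DNAJB1 had 9690 ± 1644 per kilobase in PHLac-low, below the means of these genes, against 23513 ± 2804 in PHLac-high, above the means of HSPB1 and HSPA5 there. HSPA5 was at 18031 ± 12953 in PHLac-low and 22529 ± 14231 in PHLac-high. In both fractions its difference from DNAJB1 was smaller than its SD.

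**Figure D5:**
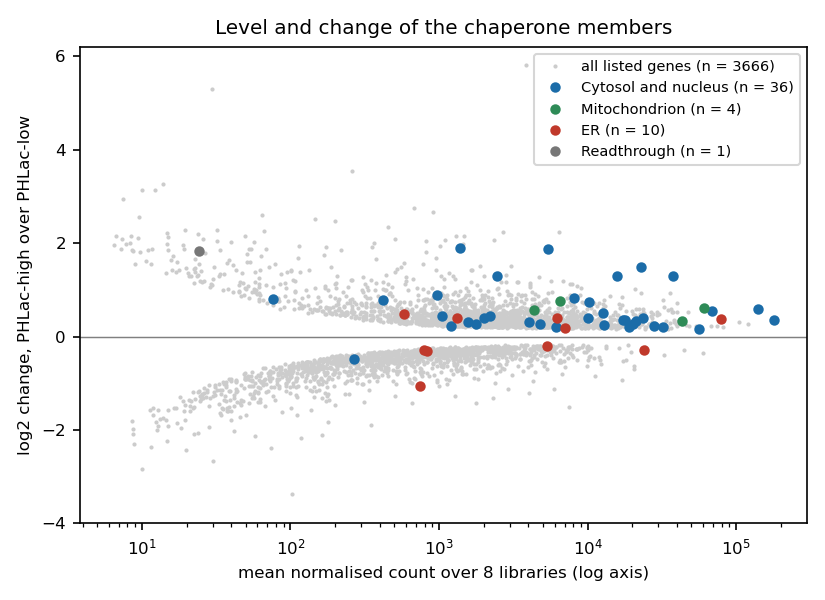
The log2 change is plotted against the mean normalised count (log axis) for all 3666 listed genes in grey and the members in colour. The empty band around 0 reflects the authors' threshold, and the members lie mostly on the right, with a median level of 6499.8 against 1335 for all listed genes.

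Folding genes whose names the rule does not match were read from 3 lists. In the cytosolic list 11 of 38 genes were listed, and all 11 passed as higher with the authors' size factors (median log2 change 0.37). After upper-quartile scaling 9 of them were above 0 (median 0.14). Of all listed genes 58.7% passed as higher, by the selection noted above. After upper-quartile scaling 5 of the 11 passed as higher, against 23.2% of the listed genes. Without the block 4 passed, against 31.0% of the listed genes in either direction. ZFAND2A, a heat shock gene that acts on the proteasome, had the largest change, 2.06 ± 0.16 (SE; adjusted p by limma = 4.75e-05). PPP1R15A, a stress response gene and no folding factor, is counted in this list and rose by 0.72. PTGES3, the HSP90 cochaperone p23, rose by 0.37 and SUGT1 by 0.43. Of 18 mitochondrial genes 3 were listed and passed as higher, also above 0 after upper-quartile scaling: GRPEL1, the exchange factor of HSPA9, rose by 0.49, YME1L1 by 0.29 and AFG3L2 by 0.23. After upper-quartile scaling 1 of these 3 passed, and without the block 2, beside the same 23.2% and 31.0% of the listed genes.

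Of 42 ER genes 15 were listed, 13 higher and 2 lower with the authors' size factors, and 11 higher after upper-quartile scaling. After that scaling 3 passed as higher and 2 as lower (23.2% and 41.2% of the listed genes). Without the block 0 of the 15 passed in limma (31.0% of the listed genes), where 3 had an unadjusted p under 0.05. With the block, edgeR and DESeq2 each called all 15, as they did all 3666 listed genes. HERPUD1, a target of the unfolded protein response that serves ER-associated degradation, rose by 0.74 ± 0.11 (SE; adjusted p by limma = 0.000577), and XBP1, a transcription factor of that response, by 0.53. MANF rose by 0.40, and the lectin chaperones CALR and CANX had changes of 0.25 and 0.23, which were 0.03 and 0.0052 after upper-quartile scaling. CRELD1 fell by 0.38 and SYVN1 by 0.26 on the log2 scale. Like HSPA5, 10 of the 15 were highest in repeat 3. HERPUD1 lay 1.28 above its mean there and MANF 1.24. HERPUD1 had 2283, 3076, 9819 and 2231 normalised counts in PHLac-low and 4029, 4952, 12445 and 4809 in PHLac-high.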

How the data were processed

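Libraries were made from selected mRNA, strand-marked with dUTP and sequenced paired end, per the labels' protocols. The submitters' processing notes name STAR, SAMtools, Subread, DESeq2 and hg38. Per-library values deposited by the authors are a signal, read counts divided by 1 size factor per library: 100% of values in each library were whole multiples of 1 step (within 0.01 read). The log2 fold change and the adjusted p-value are the authors' own, in a deposited table with no adjusted p-value above 0.05, so genes outside it were not analysed here. Per-sample columns left unmatched numbered 0.

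The test was limma 3.58.1 (R 4.3.3) on log2(value + 1) with the repeat as a block and a mean-variance trend. Benjamini-Hochberg adjustment was over all 3666 genes. The added 1 understates the change of low genes. The test describes genes already selected on these libraries. The series text states the pairing, and same-numbered libraries deviated together (correlations across genes 0.53, 0.66, 0.73 and 0.76). Alternatives were edgeR 4.0.16 and DESeq2 1.42.0 on recovered reads, other scalings, pseudocounts and filters, and each repeat left out. On simulated counts of the 3666 genes, limma recovered 100% of genes changed by 1, and 80.0% (up) and 82.0% (down) of those changed by 0.5, with 9 false calls. There 50 genes were given each change in each direction, the rest none, and all genes 1 assumed dispersion. In the real data nearly all listed genes passed, so these shares do not carry over to them.

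Named with their values were a fixed set of chaperones, where listed, and, per compartment, the 5 largest changes at a mean of at least 100, in all 20 genes. CCT5, FKBP1B, FKBP10, HSPE1-MOB4 and HERPUD1, also given by library, and other genes given by their change alone were chosen after their values were seen. Members, lists and tests were chosen with earlier results of these data known.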

Additional observations from a re-analysis of the deposited data

Results flagged for a closer look

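In 63 groups of 4 values, of the 20 named genes and the 3 compartment medians, the gap of the farthest value was set against the whole range of its group. Dixon's 95% critical value is passed by about 1 in 20 groups by chance, which is 3.15 here, and 6 passed it. The groups share libraries and are not independent. In 4 of the 6 the far value belonged to repeat 4 and in 2 to repeat 3.

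In PHLac-low the far library was that of repeat 4 for BAG3 (2988 normalised counts, gap 0.854 of the range) and for STIP1 (14284, gap 0.936). PPIF in PHLac-high was also far in repeat 4 (6934, gap 0.844). The log2 change of HSPH1 was far in repeat 4, at 0.89 (gap 0.840). In repeat 3 the far values were HSPA5 in PHLac-high (170196, gap 0.831) and DNAJC3 in PHLac-low (1902, gap 0.837).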

How the results depend on the processing

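Leaving out each replicate in turn gave from 3468 to 3627 of the 3663 listed genes, 48 to 51 of the 51 members and 26 to 29 of the 29 folding genes outside the rule. The compartment medians then ran from 0.36 to 0.42 (cytosol), -0.02 to 0.02 (ER) and 0.58 to 0.61 (mitochondria). Without the replicate block 1135 listed genes, 17 members and 6 outside genes passed, as the standard error then includes the spread between repeats. Upper-quartile scaling gave 2360, 31 and 11, and median-of-ratios scaling, chosen after seeing the data, 17 outside genes. A log2 change of at least 0.5 left 1424, 19 and 5, and keeping genes with a mean level no lower than the median left 1831 and 39, both by construction. edgeR and DESeq2 with the replicate block called all 3666 listed genes and all 51 members.

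Upper-quartile scaling moved the medians to 0.18 (cytosol), -0.23 (ER) and 0.37 (mitochondria), and median-of-ratios scaling to 0.28, -0.13 and 0.47. Averaging the cytosolic members in place of their median gave 0.58. The ER median was 0.18 among members at or above the median level and also among members of the lumen only. Of the named genes' values, HSPB1 reversed to -0.015 after upper-quartile scaling, 13 fell short of the threshold with the same direction (8 of them without the block) and 206 kept their call. Depth was that of the listed genes only. For the scalings, the cause was not tested. All alternatives for the outside genes were added after seeing the data.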
